A study of Homo sapiens with 24 samples.

Results

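The promoters described are those of 58 human transcription factor genes that pattern the embryonic nervous system and its neighbouring tissues, drawn from 18 gene families, among 20007 protein-coding genes. The members were chosen by a measured value, since their families were noticed among promoters with lowered H3K4me3 in senescent cells in the same deposited comparison, and the listed genes of these families were then included whatever their own values. The change between the states is therefore not given here. A promoter region is an H3K4me3 region that reaches to within 2 kb of an annotated transcription start site of the gene, upstream or downstream. Where a gene had several, the strongest by mean normalized count stands for the promoter.

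H3K4me3 was measured by MINT-ChIP, a ChIP-seq method in which the barcoded chromatin of several samples is pooled before immunoprecipitation, in EndoC-βH3 cells. This human beta-like cell line carries the SV40 large T antigen, hTERT and a tamoxifen-inducible Cre (CreER), and the Cre removes both immortalizing transgenes, so all samples are of 1 engineered line whose genotype is labelled WT. The 4 non-senescent samples were controls, and the 4 senescent samples were treated with 4-hydroxytamoxifen for 3 weeks, at 1 mM in the labels and 1 μM in the published methods, with 500000 cells per sample. The other 16 of the 24 samples hold H3K27me3 and H3K9me3 and were not analysed here. The labels do not say whether the samples of a state came from separate cultures. The deposited table gives, for each of 97545 regions, a single value, the mean of DESeq2-normalized counts that the authors took over the samples. No value per sample can be read from it, so the values carry no replicate error, no difference between regions was tested, and the depth of each sample is unknown. Levels at different genes are compared as densities, the mean normalized count of the region divided by its width in kb, written as counts per kb.

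H3K4me3 is a histone mark found at the start sites of active genes and, at lower levels, at many silent genes whose promoters are rich in CpG dinucleotides. Patterning transcription factors are switched on in restricted territories of the neural tube, placodes and neural crest and are held silent elsewhere, often by Polycomb complexes, which deposit H3K27me3 on the same CpG-rich promoters. Beta cells are endodermal but share a number of transcription factors with neurons, among them members of the same families such as PAX6, ISL1, NKX2-2 and NEUROD1.

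The start sites of the members with the highest and lowest H3K4me3 densities are shown, together with the alphabetically earliest member without a region. EN1, the next member without one, is only named. Each sequence is a window of 300 bases, 250 before and 50 after the RefSeq start of the gene, taken from RefSeq on GRCh38.p14 and printed 5′ to 3′ on the strand of the gene. Capitals mark each CG dinucleotide, the site of DNA methylation and the feature by which CpG islands are defined. The first set is shown because TFAP2A, TFAP2D and DLX2 had the 3 highest densities. TFAP2A lies at chr6:10419610-10419909 (minus strand), TFAP2D at chr6:50713276-50713575 (plus strand) and DLX2 at chr2:172102851-172103150 (minus strand).
TFAP2A: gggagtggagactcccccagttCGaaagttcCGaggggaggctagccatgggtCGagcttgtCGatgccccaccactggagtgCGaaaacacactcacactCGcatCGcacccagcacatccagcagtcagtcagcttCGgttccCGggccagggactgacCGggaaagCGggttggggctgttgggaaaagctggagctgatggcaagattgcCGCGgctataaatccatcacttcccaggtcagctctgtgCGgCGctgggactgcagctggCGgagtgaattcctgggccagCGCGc
TFAP2D: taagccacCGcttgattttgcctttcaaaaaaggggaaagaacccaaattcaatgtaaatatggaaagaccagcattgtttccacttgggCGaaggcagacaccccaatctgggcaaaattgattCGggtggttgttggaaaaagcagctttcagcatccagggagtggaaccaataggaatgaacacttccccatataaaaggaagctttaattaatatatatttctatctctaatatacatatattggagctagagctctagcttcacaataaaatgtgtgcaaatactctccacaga
DLX2: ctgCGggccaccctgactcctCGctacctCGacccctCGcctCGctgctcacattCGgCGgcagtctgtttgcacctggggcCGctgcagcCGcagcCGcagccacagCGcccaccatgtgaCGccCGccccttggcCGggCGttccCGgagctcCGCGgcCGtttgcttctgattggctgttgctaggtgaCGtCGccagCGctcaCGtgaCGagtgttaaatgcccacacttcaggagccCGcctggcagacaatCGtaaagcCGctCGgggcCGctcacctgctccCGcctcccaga
The windows of these genes held 18, 3 and 30 CG dinucleotides, respectively, and a GC content of 61.7%, 39.3% and 67.7%. The genes with the highest densities thus had both CG-rich and CG-poor windows at their RefSeq starts. All 300 bases of the TFAP2D and DLX2 windows and 187 bases of the TFAP2A window lay inside H3K4me3 regions, but only for DLX2 did the window touch the strongest region of the gene. The strongest region lay 930 bp from the TFAP2D window and 7152 bp from the TFAP2A window, which contains another annotated start of that gene.

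The second set is shown because FOXD3, LHX8 and PAX9 had the 3 lowest densities among members with a region. FOXD3 lies at chr1:63322317-63322616, LHX8 at chr1:75128184-75128483 and PAX9 at chr14:36657318-36657617, all on the plus strand.
FOXD3: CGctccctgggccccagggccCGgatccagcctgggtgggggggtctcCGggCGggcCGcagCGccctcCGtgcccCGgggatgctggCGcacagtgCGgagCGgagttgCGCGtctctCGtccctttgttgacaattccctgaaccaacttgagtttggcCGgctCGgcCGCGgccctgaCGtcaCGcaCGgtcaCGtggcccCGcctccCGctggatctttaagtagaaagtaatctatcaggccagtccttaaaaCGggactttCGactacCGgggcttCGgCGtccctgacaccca
LHX8: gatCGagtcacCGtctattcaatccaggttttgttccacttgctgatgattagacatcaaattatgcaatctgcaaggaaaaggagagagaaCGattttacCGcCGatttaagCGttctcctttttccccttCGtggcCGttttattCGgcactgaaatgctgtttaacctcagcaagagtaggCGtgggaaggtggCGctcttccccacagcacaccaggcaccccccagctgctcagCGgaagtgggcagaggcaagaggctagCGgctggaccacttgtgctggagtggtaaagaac
PAX9: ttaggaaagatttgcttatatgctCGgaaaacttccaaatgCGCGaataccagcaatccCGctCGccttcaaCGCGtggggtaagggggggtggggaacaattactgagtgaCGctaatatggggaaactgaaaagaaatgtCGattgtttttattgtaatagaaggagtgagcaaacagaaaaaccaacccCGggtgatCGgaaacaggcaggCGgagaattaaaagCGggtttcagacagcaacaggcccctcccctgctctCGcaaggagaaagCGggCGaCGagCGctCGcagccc
FOXD3 held 29 CG dinucleotides, LHX8 13 and PAX9 19. The whole FOXD3 window and 213 bases of the LHX8 window lay inside the weak regions of these genes, and the PAX9 window lay inside none, 6126 bp from the strongest region of the gene. The last window, shown as an example of a promoter with no region, is that of EMX2 at chr10:117542496-117542795 on the plus strand.
EMX2: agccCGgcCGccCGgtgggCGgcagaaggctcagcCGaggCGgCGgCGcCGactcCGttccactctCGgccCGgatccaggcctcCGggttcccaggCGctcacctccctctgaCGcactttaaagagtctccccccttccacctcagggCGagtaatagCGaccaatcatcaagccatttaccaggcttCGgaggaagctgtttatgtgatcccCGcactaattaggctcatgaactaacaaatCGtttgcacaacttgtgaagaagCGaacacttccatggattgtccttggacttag
EMX2 held 21 CG dinucleotides with a GC content of 58%, and none of its bases lay inside a region. Among the genes shown that had a region, the number of CG dinucleotides in the window did not follow the density of the strongest region. That region lay away from the windows of TFAP2A, TFAP2D and PAX9. CG number and H3K4me3 were therefore not compared on the same sequence.

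An H3K4me3 region lay within 2 kb of a start site at 45 of the 58 members (77.6%), against 75.3% of all protein-coding genes (15071 of 20007). The share of members with a region was thus close to that of all genes. The regions of the members were weaker and narrower. Their median density was 11.2 counts per kb (quartiles 7.02 and 17.2, range 3.69 to 38.5), against 19.0 counts per kb (quartiles 12.3 and 26.8) over all 15071 promoters with a region, a ratio of medians of 0.589. Only 8 of the 45 members (17.8%) reached the median density of all promoters, 25 (55.6%) lay at or below the lower quartile and 2 (4.44%) at or above the upper quartile. The strongest regions had a median width of 1140 bp, against 2490 bp over all promoters, and a median of 12.7 mean normalized counts, against 49.1. All 45 strongest regions were distinct, and none was the strongest region of another protein-coding gene. Together they held 0.0642% of the mean normalized counts of the table.

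**Figure D1:**
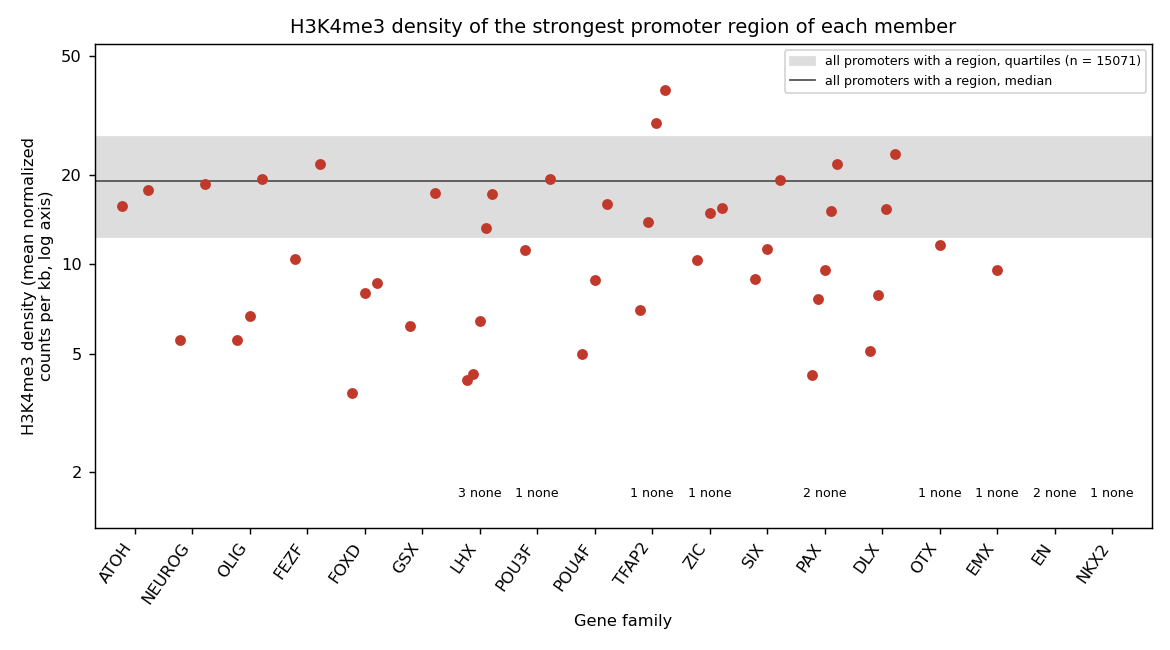
H3K4me3 density (mean normalized counts per kb, log axis) of the strongest promoter region of each of the 45 members with a region, 1 point a gene, by gene family, with the median (line) and quartiles (grey band) of all 15071 promoters with a region; "none" counts members without a region. Most points lie below the line at 19.0 counts per kb, 25 lie below the grey band, and TFAP2A and TFAP2D lie above it.

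Proneural basic helix-loop-helix factors start neuronal differentiation, and all 4 members had a start site inside a region. Densities were 15.6 counts per kb at ATOH1, a factor of cerebellar granule cells and inner ear hair cells, and 17.8 at ATOH7, which specifies retinal ganglion cells. The neurogenins differed more, with 5.56 counts per kb at NEUROG1 and 18.6 at NEUROG2. The regions of ATOH1 and NEUROG2 were 2340 and 1407 bp wide. Among the OLIG genes, which act in motor neuron and oligodendrocyte progenitors, OLIG1 had the highest density. Its region on chr21 (33071105 to 33073406, 2301 bp) held 44.4 mean normalized counts, or 19.3 per kb, and regions covered 3385 bp within 10 kb of its start sites. The neighbouring OLIG2 was the lowest of the family. Its region (33026011 to 33027317, 1306 bp) held 7.28 counts, or 5.57 per kb, with 1806 bp covered. OLIG3 had 6.67 counts per kb. The neighbours OLIG1 and OLIG2 thus differed in density, without a replicate error to set the difference against.

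Homeodomain genes of the forebrain spanned much of the range. The DLX genes, which are arranged in convergent pairs and act in GABAergic interneurons and craniofacial tissue, all had a start site inside a region. DLX2 was the third highest of all 45 members. Its region on chr2 (172102216 to 172103596, 1380 bp) spans the start shown above and held 32.3 counts, or 23.4 per kb, with 2541 bp covered within 10 kb. The other gene of the pair, DLX1, was the lowest of the family, with a 642 bp region (172085218 to 172085860) that held 3.29 counts, or 5.12 per kb, and 1142 bp covered. DLX5 had 15.4 counts per kb and DLX6 had 7.88, the latter over a 3193 bp region. In both pairs the densities of the neighbours were unequal. GSX1 and GSX2, regulators of the ventral telencephalon and spinal interneurons, had 17.3 and 6.20 counts per kb, and neither had a start site inside a region. OTX1, a forebrain and midbrain factor, had 11.6 counts per kb, and EMX1, of the dorsal telencephalon, had 9.59. Their partners OTX2 and EMX2 had no region within 2 kb. Neither EN1 nor EN2, which act at the boundary of midbrain and hindbrain, had a region, nor did NKX2-1, a factor of the ventral forebrain, lung and thyroid.

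SIX6, SIX3 and SIX2 are homeobox genes of the eye, forebrain and kidney. SIX6, an eye field gene, had the highest density of its family. Its region on chr14 (60506717 to 60508026, 1309 bp) held 25.1 counts, or 19.2 per kb, with 4437 bp covered, and lay 1120 bp from the nearest start site. SIX3, which sets the anterior forebrain and is also a regulator in adult human beta cells, had the lowest, with a 782 bp region on chr2 (44941346 to 44942128) that spans its start site and held 6.96 counts, or 8.90 per kb, with 3661 bp covered. SIX2, a gene of nephron progenitors that lies beside SIX3, had 11.2 counts per kb.

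LIM-homeodomain (LHX) genes control the identity of projection neurons and interneurons, and 5 of the 8 members had a region, all with a start site inside one. LHX4, a pituitary and motor neuron factor, was the highest. Its region on chr1 (180230245 to 180232209, 1964 bp) held 33.7 counts, or 17.2 per kb, with 4088 bp covered. LHX8, of forebrain cholinergic neurons, was the lowest and the second lowest of all members. Its 500 bp region on chr1 (75128270 to 75128770), at the start shown above, held 2.05 counts, or 4.09 per kb, with 1000 bp covered. LHX1 had 4.26 counts per kb, LHX6 6.42 and LHX9 13.2, and LHX2, LHX3 and LHX5 had no region. None of the LHX genes reached the median density of all promoters.

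POU3F2 (BRN2), a class III POU factor of neural progenitors and neurons, had the widest region of the members. The region on chr6 (98830864 to 98838198) was 7334 bp wide, spanned the start site and held 141.6 counts. POU3F2 was the only member in the widest 10% of all promoters, a class with a lower limit of 4844 bp. Its density of 19.3 counts per kb was at percentile 51.2 of all promoters, so the size of its region rather than its density set it apart from the other members. Regions covered 8179 bp within 10 kb of its start sites. POU3F1, the other class III member with a region, had 11.2 counts per kb over 547 bp (chr1, 38047280 to 38047827) with no further region within 10 kb, and POU3F3 had none within 2 kb. The class IV genes mark sensory neurons. POU4F1 was the highest at 16.0 counts per kb (chr13, 78602352 to 78604435, 2083 bp, 33.3 counts, 4546 bp covered). POU4F3, a hair cell gene, was the lowest at 5.00 (chr5, 146339370 to 146340699, 1329 bp, 6.65 counts, 2022 bp covered). POU4F2, of retinal ganglion cells, had 8.82 counts per kb over 3656 bp, a wide region of low density.

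The PAX genes act in brain, eye, neural crest, kidney, thyroid, vertebrae and lymphocytes, and 5 of the 7 members had a region. PAX5, the B cell factor that also acts at the boundary of midbrain and hindbrain, was the highest. Its region on chr9 (37025466 to 37028515, 3049 bp) held 66.4 counts, or 21.8 per kb, with 5542 bp covered. This region contains an annotated start but is centred 7278 bp downstream of the canonical start. PAX9, a gene of pharyngeal pouches, teeth and vertebrae, was the lowest. Its 736 bp region on chr14 (36663743 to 36664479) held 3.13 counts, or 4.26 per kb, with 1236 bp covered. PAX3, of neural crest and muscle precursors, had 15.1 counts per kb, PAX1 9.54 and PAX8, of thyroid and kidney, 7.65. PAX2 and PAX7 had no region. The regions of PAX3 and PAX8 were centred 58.1 and 60.3 kb downstream of the canonical start, within 2 kb of another annotated start, and were poor in CpG.

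Zinc finger genes lay mostly below the median. FEZF1, of the olfactory system and hypothalamus, had 21.7 counts per kb, and FEZF2, of corticospinal neurons, had 10.4. The ZIC genes, which act in the dorsal neural tube and cerebellum, lie in neighbouring pairs. ZIC5 was the highest at 15.5 counts per kb (chr13, 99969851 to 99970403, 552 bp, 8.53 counts, 1052 bp covered), with its region 1364 bp from the nearest start. ZIC4 was the lowest at 10.3 (chr3, 147392078 to 147392872, 794 bp, 8.17 counts, 2494 bp covered), and ZIC1 had 14.9. ZIC2, the neighbour of ZIC5, had no region within 2 kb. The forkhead genes FOXD1, FOXD2 and FOXD3 were all below the lower quartile of all promoters. FOXD1, of kidney stroma and the ventral retina, was the highest at 8.66 counts per kb (chr5, 73446050 to 73447190, 1140 bp, 9.87 counts, 4625 bp covered). FOXD3, a neural crest factor, was the lowest of all 45 members. Its 500 bp region on chr1 (63322309 to 63322809) held 1.84 counts, or 3.69 per kb, although regions within 10 kb covered 4044 bp. FOXD2 had 7.98 counts per kb.

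TFAP2 genes encode AP-2 factors of the neural crest and surface ectoderm, and the 2 highest densities of the members were theirs. TFAP2A had 38.5 counts per kb, at percentile 93.5 of all promoters, in a 1009 bp region on chr6 (10411449 to 10412458) that held 38.8 counts. Its start sites were near 6 separate regions, the highest number among the members, and 7346 bp were covered within 10 kb. TFAP2D followed with 29.7 counts per kb, at percentile 82.0, in a region 979 bp from its start (chr6, 50714505 to 50715998, 1493 bp, 44.4 counts, 3246 bp covered). The region that spans the TFAP2D start itself is 500 bp wide and held 1.43 counts per kb. TFAP2B, which lies beside TFAP2D, had 13.9 counts per kb, and TFAP2E was the lowest at 7.02 (chr1, 35577782 to 35578729, 947 bp, 6.64 counts, 947 bp covered). TFAP2C had no region. The strongest region of neither TFAP2A nor TFAP2D therefore lay on the start shown above. That of TFAP2A lay 7152 bp from the window shown and contains another annotated start of the gene.

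The 8 members at or above the median density of all promoters were TFAP2A, TFAP2D, DLX2, PAX5, FEZF1, POU3F2, OLIG1 and SIX6, of 7 families. The last 3 of these lay at percentiles 51.2, 51.0 and 50.6, so their place above the median rests on small differences. Only TFAP2A and TFAP2D exceeded the upper quartile of all promoters. Several of these places rested on the choice of region. With the region nearest a start in place of the strongest, the densities were 1.43 counts per kb at TFAP2D, 5.61 at FEZF1 and 10.4 at SIX6. All 3 were below the lower quartile given above. At TFAP2A and OLIG1 the strongest region contained a start itself, but so did other or another region. Such ties went to the first region along the chromosome, with 10.3 counts per kb at TFAP2A and 9.31 at OLIG1. These regions were no nearer a start than the strongest. With canonical starts alone, TFAP2A had 8.48 and PAX5 14.2 counts per kb. DLX2 and POU3F2 stayed within 1.5 times their densities under each choice of window, region and start that was tried. Densities varied within families. Among the families with at least 3 promoter regions, the ratio of the highest to the lowest density ran from 1.501 in the ZIC genes to 5.48 in the TFAP2 genes.

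The 13 members without a region were LHX2, LHX3, LHX5, POU3F3, TFAP2C, ZIC2, PAX2, PAX7, OTX2, EMX2, EN1, EN2 and NKX2-1. Some of them lay just beyond the limit of 2 kb. The nearest region lay 2034 bp from a start site of ZIC2, 2187 bp from LHX2 and 2289 bp from POU3F3, whereas, among members with a region, the nearest lay farthest from a start at PAX1 (1601 bp), ZIC5 (1364 bp) and PAX8 (988 bp). LHX5 and PAX2 had their nearest regions at 3.34 and 3.77 kb, TFAP2C, EMX2 and EN1 at 5.96, 6.70 and 7.74 kb, and PAX7, OTX2, NKX2-1, EN2 and LHX3 at 11.6, 11.7, 14.5, 15.8 and 19.8 kb. The densities of these nearest regions ran from 2.11 counts per kb at TFAP2C to 17.1 at PAX2, beside a median of 6.29 over all regions of the table.

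The position of H3K4me3 relative to the start sites also differed from that of all genes. An annotated start site lay inside a region at 27 of the 45 members with a region (60.0%), against 83.5% of all genes with a region. The strongest region did not contain a start site at 20 members (44.4%), against 22.4% of all genes. The median length covered by regions within 10 kb was 2541 bp at the members and 4069 bp over all genes with a region, and 24 members (53.3%) had at least 2 separate regions in the promoter window, against 44.5%. The order of these last shares depended on weak regions. With regions of at least 5 mean normalized counts alone it turned, to 22.5% of members and 31.8% of all genes, and with a window of 1 kb the shares were 37.2% and 36.8%.

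**Figure D2:**
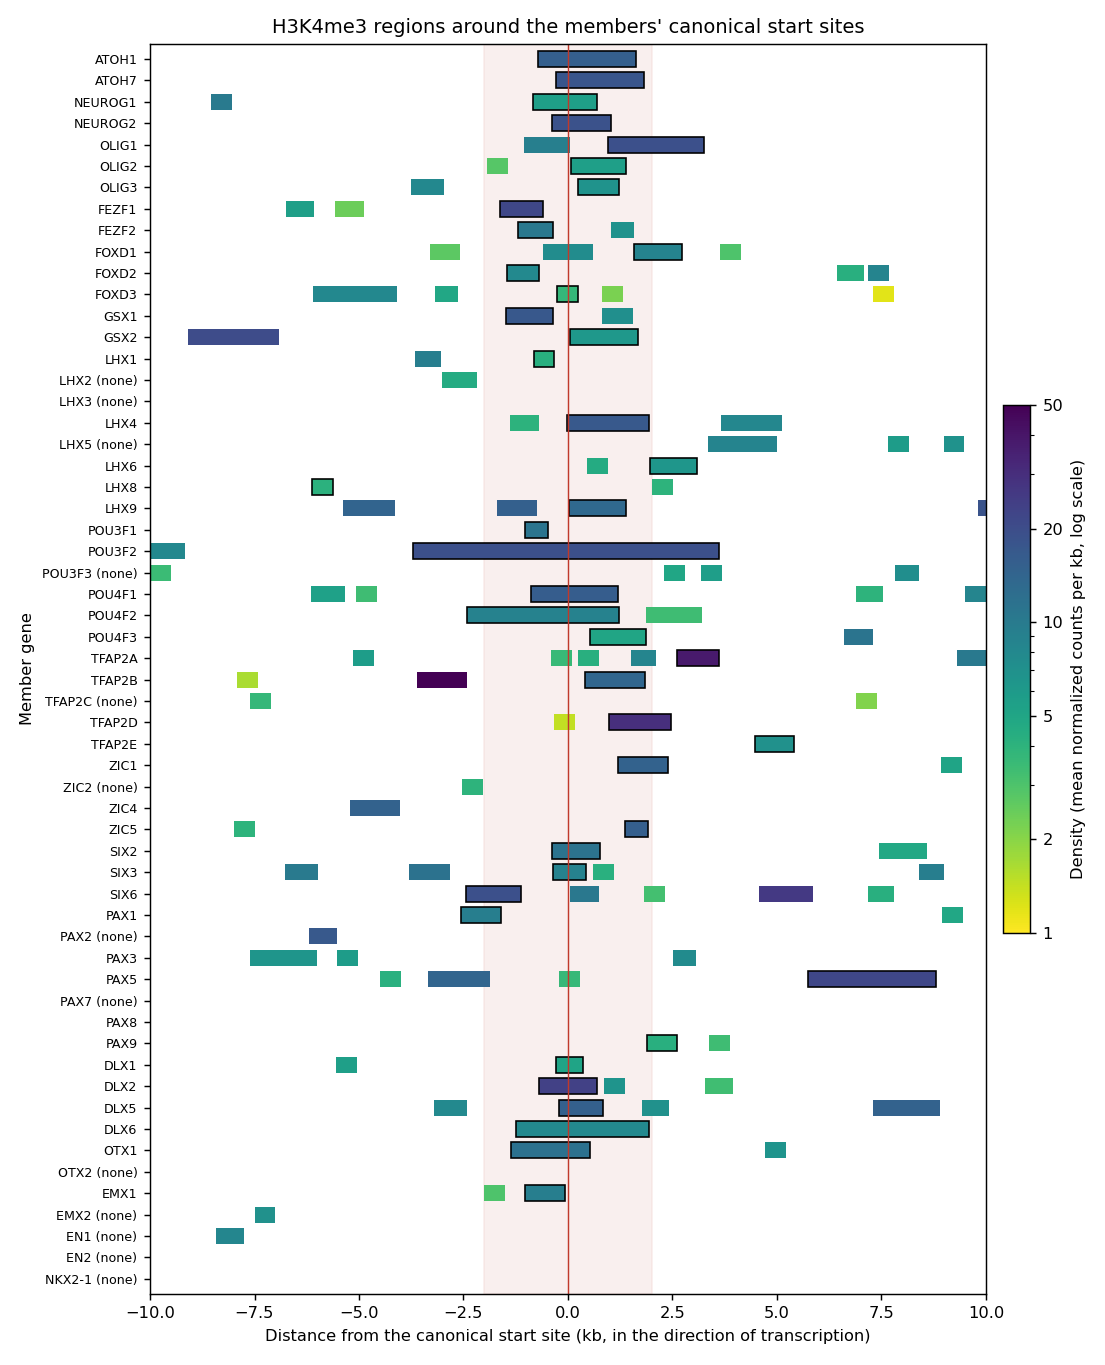
H3K4me3 regions within 10 kb of the canonical start site of each of the 58 members (horizontal axis, kb in the direction of transcription), coloured by density (mean normalized counts per kb, log scale); black outlines mark the strongest promoter region, the pink band the 2 kb window, and "(none)" members without a region. The POU3F2 region of 7334 bp is the widest, and the strongest regions of LHX8 and TFAP2E lie outside the band because they were found at other annotated starts.

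In the map of regions, many members have small pale regions on both sides of a bare start site. A stronger region outside the 2 kb window but within 10 kb was present at 10 of the 45 members. The same share was not taken over all genes, so it is not known whether this is unusual. Upstream of TFAP2B, a region of 1193 bp held 60.1 counts, or 50.4 per kb, at −3.61 to −2.42 kb from the canonical start, against 13.9 per kb in the promoter window. GSX2 had a region of 44.5 counts upstream, against 10.1 in its window, and LHX9 one of 43.9 counts downstream, against 18.0. At FOXD3, a region of 16.1 counts lay at −6.10 to −4.10 kb, against 1.84 counts at the start. The others were LHX1, POU4F3, ZIC4, SIX3, SIX6 and DLX5, and the region near ZIC4 was the promoter region of its neighbour ZIC1.

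**Figure D3:**
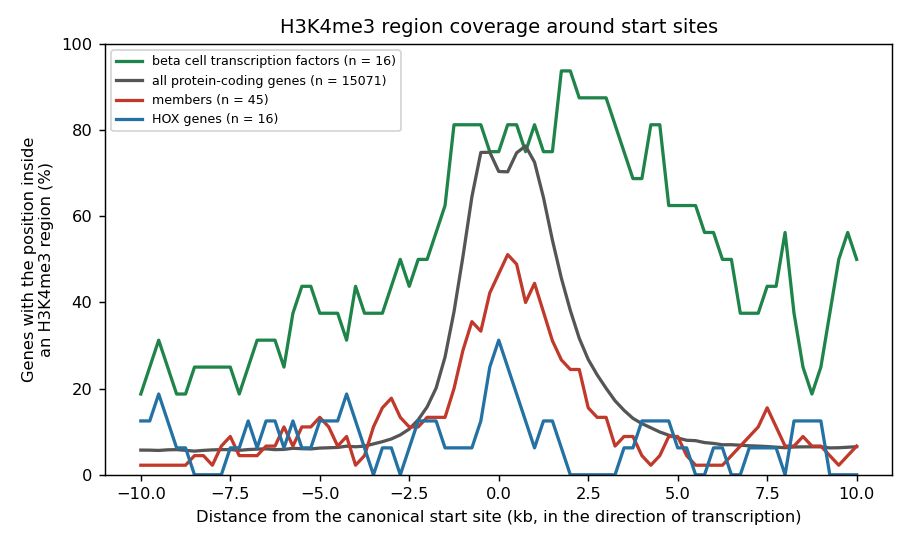
Percent of genes (vertical axis) with the position inside an H3K4me3 region at each distance from the canonical start site (horizontal axis, kb in the direction of transcription), among genes with a promoter region: 45 members, all 15071 protein-coding genes, 16 HOX genes and 16 beta cell transcription factors. The highest share is 51.1% for the members, at 0.25 kb, beside 76.3% for all genes and 31.3% for the HOX genes.

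At the canonical start itself, 46.7% of the members with a region were covered, against 70.4% of all genes with a region. At 1 kb downstream the shares were 44.4% and 72.6%, and at 1 kb upstream 28.9% and 50.6%. At 3 kb upstream the order turned, with 17.8% of members and 8.32% of all genes covered. The profile of all genes had a shallow dip at the start between flanking maxima, and that of the members a lower summit just downstream of it.

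Markers of cell types were looked up in the same way. All 9 beta cell markers had a region, against 75.3% of all protein-coding genes. Their median density was 22.5 counts per kb, and INS had 14.0, IAPP 7.56 and PCSK1 28.9. PDX1 and NKX6-1 are among these markers and also in the list of beta cell factors below. Of these beta cell markers, 5 reached the median density of all promoters and 4 did not. Of 8 markers of other islet and pancreas cells, 6 had a region, with a median of 8.43 counts per kb, and none of these reached the median of all promoters.

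The HOX genes, which pattern the body axis and are classic Polycomb targets, and the transcription factors that define beta cells served as lists for comparison. The member SIX3, itself a beta cell regulator, is not in the list of beta cell factors. Of the 39 HOX genes, 16 (41.0%) had a region, with a median density of 4.10 counts per kb and a median width of 500 bp. None of the 16 reached the median density of all promoters, and the highest was HOXD1 at 17.9 counts per kb. Of the 17 beta cell factors, 16 had a region, the exception being MAFA. Their median density was 25.0 counts per kb, with the highest at INSM1 (51.6), and their median width was 6849 bp, with 12 of 16 in the widest 10% of all promoters. The paper reports MAFA mRNA as elevated in the senescent cells, so a gene without a region here need not be silent. The median density of the members was 2.73 times that of the HOX genes, but with regions of at least 5 mean normalized counts alone the order turned, at 12.4 counts per kb for the members and 13.2 for the 3 HOX genes left. The median of the beta cell factors was 2.24 times that of the members. In width, the beta cell factors were 6.01 times the members.

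**Figure D4:**
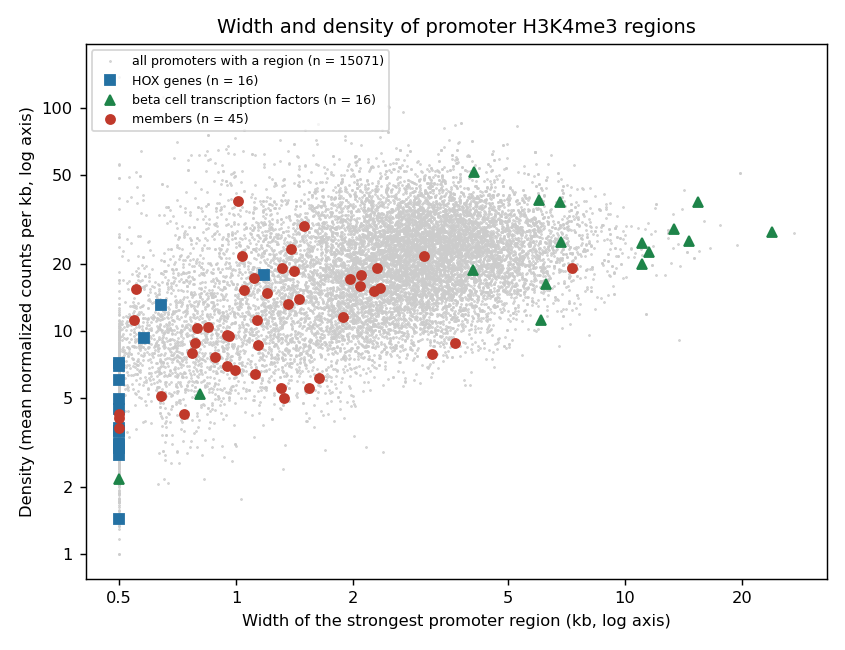
Density (mean normalized counts per kb, log axis) against width (kb, log axis) of the strongest promoter region for 45 members (red circles), 16 HOX genes (blue squares), 16 beta cell transcription factors (green triangles) and all 15071 promoters with a region (grey dots). Most members lie between 0.5 and 4 kb, apart from POU3F2 at 7.33 kb, whereas most HOX genes lie at 0.5 kb and most beta cell factors beyond 4 kb.

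The plot of width against density shows the beta cell factors apart from the members mainly along the width axis. Other genes of the same families, 17 of 25 with a region, had a median density of 14.6 counts per kb and a wide range, from 4.81 at NEUROD4 to 38.1 at ISL1. This list shares ISL1, PAX6, NKX2-2 and NEUROD1 with the beta cell factors. Within the PAX family, the members therefore reached up to 21.8 counts per kb at PAX5 over 3049 bp, beside 27.8 at PAX6, the islet and eye gene, over 23885 bp. Density and width went together to a similar degree at members (Spearman's rho 0.479 across 45 genes) and over all promoters (0.480 across 15071 genes). Genes are not independent replicates, and width enters the density, so these coefficients are descriptions.

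The sequence of the regions was not used to choose the members. The strongest regions of the members were rich in CpG, with a median ratio of observed to expected CpG of 0.764 (quartiles 0.698 and 0.823), against 0.587 over all promoters. Their median GC content was 58.9%, against 51.3%, and they held a median of 6.68 CpG per 100 bp, against 3.77. A ratio above 0.6 with a GC content above 50%, limits commonly used for CpG islands, was met by 38 of 45 members (84.4%) and by 31.8% of all promoters. The regions of the members were also narrower, and the part of width in this comparison was not tested. Among CpG-rich regions alone, the median density was 12.4 counts per kb at members and 16.6 over all promoters, and the median width 1307.5 and 2081 bp.

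**Figure D5:**
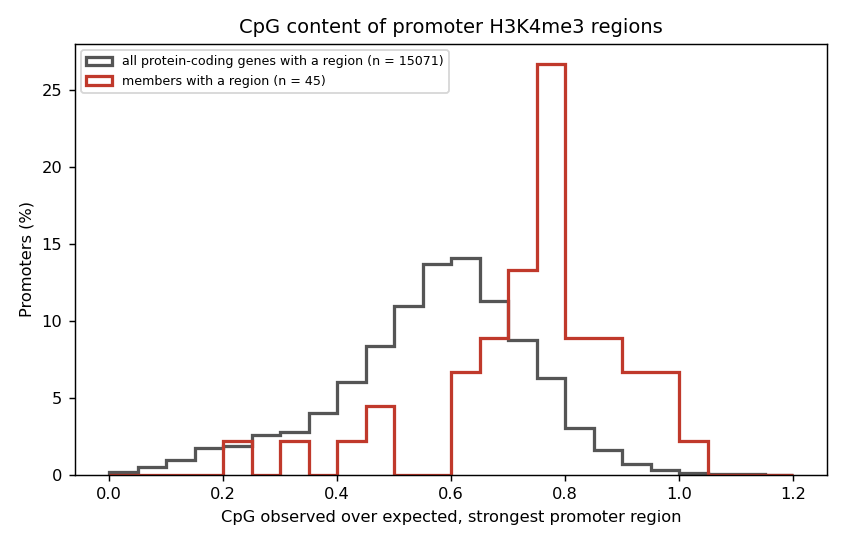
Histogram of the ratio of observed to expected CpG in the strongest promoter region (horizontal axis) as percent of promoters (vertical axis) for 45 members (red) and all 15071 protein-coding genes with a region (grey). The members centre on 0.764 and all promoters on 0.587, and 5 members lie below 0.6.

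The 5 members with a ratio below 0.6 were PAX8 (0.203), PAX3 (0.348), TFAP2E (0.419), PAX9 (0.495) and SIX3 (0.499). Those of PAX8, PAX3 and TFAP2E lay at other starts than the canonical one. The highest ratio was 1.02, at ZIC5. Density and CpG ratio were weakly related within the members (rho 0.0835 across 45 genes) and over all promoters (0.0786). For density and GC content, rho was −0.150 within the members and −0.340 over all promoters. What part GC content had in the lower densities of the members was not tested. The fixed 300-base windows at RefSeq starts gave closer medians. The median was 23 CpG per window (quartiles 18 and 30) at the 47 members matched to the table and 22 (quartiles 9 and 32) over the 15345 matched genes, with or without a region, which are 76.7% of all protein-coding genes, so the comparison with all genes is incomplete. Members with a region had a median of 23 CpG (37 windows), and those without 21 (10 windows). The members thus had a higher lower quartile at a close median.

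Core promoter letters were searched in the same windows on both strands. The TATA box letters TATAAA were found in 8 of 47 member windows (17.0%), against 9.63% of all matched windows. These were the windows of ATOH7, GSX2, OLIG3, PAX5, POU4F3, TFAP2A, TFAP2B and TFAP2D. The letters of the CCAAT box, CCAAT, were in 48.9% of member windows and 36.6% of all, and those of the GC box, GGGCGG, in 59.6% and 59.2%. None of the 3 strings contains another. In the sequences shown above, TFAP2A and TFAP2D have the letters tataaa upstream of the start. A match is a description of letters and not of a bound site.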

How the data were processed

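H3K4me3 MINT-ChIP data of 8 EndoC-βH3 samples (4 non-senescent, 4 senescent) were used. Reads were aligned by the authors with Bowtie2 to hg38. The authors found peaks with HOMER and tested the states against each other with DESeq2. The signal used is the authors' deposited mean, over the samples, of DESeq2-normalized counts in each region. The table also holds the log2 fold change, standard error, Wald statistic, p-value and adjusted p-value of the authors' comparison, which were not used. Without a value per sample, no depth, interval or test could be given, and a mean over both states cannot show a change between them. How regions were merged, and whether their starts count from 0 or 1, is not given in the sources used here, and positions are printed as in the table.

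Starts were read from GENCODE release 44 (20007 protein-coding genes, mitochondrial genes left out), with the Ensembl canonical transcript for canonical starts. Regions within 2 kb of any start were linked to the gene, and the strongest gave its promoter value. Density is the mean normalized count divided by width, and covered length is the union of regions within 10 kb of any start. GC and CpG content came from hg38, and all 97545 regions lay within its chromosome lengths. RefSeq windows (GRCh38.p14) were found for 47 of 58 members. The assignment was tested on simulated regions around 2000 genes, and all 1320 planted regions were recovered.

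Members and lists were chosen with earlier results of these data known. The density of each member with a region is given, with full values for the highest and lowest of each family of at least 3 and the 3 highest and 3 lowest of all. Genes of other lists were named as highest or lowest, or as shared between lists. Further ones (INS, IAPP, PCSK1, PAX6, MAFA) and the members with a stronger region nearby were named after their values were seen. Some genes of these lists are not reported here by name. The closing section gives the effect of 11 alternatives. Calculations ran in Python 3.11.15 with scipy 1.17.1, pandas 2.3.3, numpy 2.4.6 and matplotlib 3.10.9.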

Additional observations from a re-analysis of the deposited data

How the results depend on the processing

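The windows, the start sites, the choice of region, the minimum signal and the scale were varied in 11 ways. Of 52 values obtained under the alternatives, 47 stayed within 1.5 times the value reported. On the scale of mean normalized counts, not divided by width, the members had a median of 12.7 counts, which was 0.258 times that of all promoters, against 0.589 times for the density. With the region nearest a start site in place of the strongest, or with only regions of at least 5 mean normalized counts, 5 members reached the median density of all promoters in place of 8. In the choice of the nearest region, ties between regions that contained a start went to the first along the chromosome, as at TFAP2A and OLIG1. With all regions of a window pooled, the median summed width of the members was 1712 bp. With regions of at least 5 mean normalized counts, 9 members had at least 2 regions in place of 24, and their share (22.5%) fell below that of all genes (31.8%) where it had been above it. Across the alternatives, between 40 and 50 members had a region, and their median density per kb was 0.542 to 0.648 times that of all promoters. The density of the HOX genes rose to a median of 13.2 counts per kb with regions of at least 5 mean normalized counts, under which 3 HOX genes were left, against 12.4 at the members. No paired analysis was possible because the table holds a single mean over the samples, and for the same reason no sample could be left out in turn. Depth per sample is unknown.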
